A study of Mus musculus with 15 samples.

Results

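The genes described here are 32 enzymes and carriers of fatty acid oxidation, taken by symbol out of 23359 entries in the authors' tables of leukemia stem cells (LSC) from 4 sites and of normal marrow cells. By the textbook place of their products they were sorted into 4 acyl-CoA synthetases that activate fatty acids, 18 mitochondrial proteins, 8 peroxisomal proteins and 2 proteins found in both compartments. All 32 symbols were found, and each had more than 3 estimated counts in every group, the lowest being 24.1 in SPL. Between 28 and 30 of them reached an FPKM (fragments scaled by transcript length and sequencing depth) of 1 in each group. By background knowledge every member encodes a step of the pathway or a carrier that serves it, as the name of the set says.

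The LSC modelled blast-crisis chronic myeloid leukemia in mice through the oncogenes BCR-ABL and NUP98-HOXA9 and were collected 12 days after transplantation. They were taken from gonadal adipose tissue (AT), peripheral blood (BL), spleen (SPL) and bone marrow (BM). The reference cells were their normal counterparts from bone marrow (NBM), for which the labels carry the same strain and treatment text as for the LSC. Each group had 3 RNA-seq libraries, all from female mice aged 3 months. The deposited columns hold 1 pooled value per group, so no spread between libraries can be shown, and the only test across libraries is the authors' own Cuffdiff comparison. No sort gate is stated in the labels, nor that replicate libraries are from different animals, and the p-values may then measure technical spread.

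Long-chain fatty acids are first joined to coenzyme A. Carnitine palmitoyltransferases and a carrier then move the acyl group into mitochondria, where a dehydrogenase, a hydratase, a second dehydrogenase and a thiolase shorten it in repeated rounds, and electron transfer flavoprotein passes the electrons to the respiratory chain. Peroxisomes import very-long-chain and branched acyl-CoA through ABC transporters, begin each round with an oxidase that makes hydrogen peroxide, and hand shortened chains on to mitochondria. Leukemia stem cells are known in the field for their use of fatty acids as fuel.

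Because members that move together could share letters near their starts, the promoter windows in RefSeq (GRCm38.p6, from 250 bases before to 50 bases after the annotated start) were searched on both strands for 4 motifs. Windows were given for 28 of the 32 members, 31 windows among 32851. The single recognition hexamer of nuclear receptors such as PPAR alpha, AGGTCA, was in the windows of 4 members (Cpt1a, Acadvl, Acadm and Echs1), and 16.3% of all windows held it. The direct repeat AGGTCANAGGTCA, which contains that hexamer, was in 0 member windows and in 0.0396% of all windows. With 1 mismatch allowed in each hexamer, that repeat was in the windows of Slc25a20 and Etfa, and in 2.4% of all windows. The E-box CACGTG was in 0 member windows and in 7.15% of all windows. The 1-mismatch repeat and the E-box were not in the planned search and were added to it. A few windows are shown, each read 5′ to 3′ on the gene's strand with the matched letters in capitals. Acadm (chr3:153944594-153944893, minus strand) and Echs1 (chr7:140116372-140116671, minus strand) hold the hexamer and had called differences, Slc25a20 (chr9:108661886-108662185, plus strand) holds the 1-mismatch repeat, and Nudt7 (chr8:114133324-114133623, plus strand), the member with the widest range of levels, holds no match.
Acadm: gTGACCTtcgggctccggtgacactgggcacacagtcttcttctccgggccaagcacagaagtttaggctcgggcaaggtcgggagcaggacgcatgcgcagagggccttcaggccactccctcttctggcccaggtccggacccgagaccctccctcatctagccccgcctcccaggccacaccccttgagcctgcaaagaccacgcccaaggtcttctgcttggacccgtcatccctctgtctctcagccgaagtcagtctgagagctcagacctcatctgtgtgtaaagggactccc
Echs1: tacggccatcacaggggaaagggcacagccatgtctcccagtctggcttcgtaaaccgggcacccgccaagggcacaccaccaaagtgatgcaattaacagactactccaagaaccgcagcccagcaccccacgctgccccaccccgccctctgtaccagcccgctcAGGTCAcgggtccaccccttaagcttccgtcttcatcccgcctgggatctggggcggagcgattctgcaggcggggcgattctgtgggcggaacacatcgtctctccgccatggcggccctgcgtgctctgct
Slc25a20: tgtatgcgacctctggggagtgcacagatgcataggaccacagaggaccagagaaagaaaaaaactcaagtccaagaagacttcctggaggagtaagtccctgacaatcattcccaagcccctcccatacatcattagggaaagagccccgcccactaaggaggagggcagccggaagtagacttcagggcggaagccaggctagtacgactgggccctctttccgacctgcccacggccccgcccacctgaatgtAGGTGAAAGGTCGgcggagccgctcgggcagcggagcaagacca
Nudt7: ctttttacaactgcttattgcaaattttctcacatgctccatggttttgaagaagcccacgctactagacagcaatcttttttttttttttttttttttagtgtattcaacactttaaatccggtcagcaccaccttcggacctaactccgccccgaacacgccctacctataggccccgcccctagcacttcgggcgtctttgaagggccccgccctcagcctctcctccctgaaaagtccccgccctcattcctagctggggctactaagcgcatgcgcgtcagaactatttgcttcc
A match describes letters only, and the absence of one says nothing about any factor.

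The pooled libraries held 1.96e+07 estimated counts for AT, 1.95e+07 for BL, 8.96e+06 for SPL, 1.65e+07 for BM and 1.95e+07 for NBM, so SPL levels rest on the fewest reads. The median log2 fold over all tested genes was not 0 in most comparisons, and in AT over BM it was -0.48. Folds were therefore also centred on that median, and calls lost on centring are named as such. Markers of other cells differed between groups. The 8 mature neutrophil markers found summed to 3958 FPKM in AT, 1152 in BL, 689 in SPL, 874 in BM and 1568 in NBM. Ngp, S100a8 and S100a9, at 1605, 1331 and 707 FPKM in AT, made up most of the sum there. These markers differed in direction in AT over BL, with 4 called higher (S100a8, S100a9, Camp and Ngp) and 1 lower (Mmp9). Among all genes 4.01% were higher and 2.51% lower. Cxcr2 and Retnlg had 3.43 and 11.3 FPKM in AT, against 7.70 and 19.6 in BL, and were not called. The 10 macrophage markers found summed to 1053 FPKM in AT, 1407 in BL, 208 in SPL, 201 in BM and 401 in NBM. Lyz2 alone gave 852 of it in AT, 1105 in BL, 151 in SPL, 121 in BM and 299 in NBM. In AT over NBM, 3 of the 10 were called higher (Emr1, Marco and Lyz2) and 4 lower (C1qa, C1qb, Mrc1 and Fcgr1). Of all genes, 7.94% were higher and 15.5% lower in that comparison. The 10 stromal markers summed to 38.5 FPKM in AT, 1.35 in BL, 4.41 in SPL, 4.35 in BM and 2.82 in NBM, with Dcn at 21.0 in AT, while 0 of them were below 0.1 FPKM in AT. The 12 stem and progenitor markers summed to 134 FPKM in AT, 255 in BL, 150 in SPL, 169 in BM and 272 in NBM. The 8 adipocyte markers summed to 22.7 FPKM in AT, 27.9 in BL, 9.37 in SPL, 12.6 in BM and 14.5 in NBM, nearly all of it Pnpla2 and Lipe. In AT, 4 of the 8 were below 0.1 FPKM (Adipoq, Plin1, Lep and Retn), against 6 of 8 in each other group. Cidec had 0.263 FPKM in AT, 0.0101 in BL, 0.00818 in SPL, 0.0130 in BM and 0.0127 in NBM, and was called higher in AT than in BL, BM and NBM. Cfd had 0.349 FPKM in AT, 0.0112 in BL, 0.0151 in SPL, 0 in BM and 0.0749 in NBM. The part of these cells in any result below was not tested, and in bulk samples fewer cells of a type and less RNA per cell cannot be told apart.

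The oxidation genes were lower in AT than in BM and SPL more often than higher, and the largest folds were those of Nudt7 and Ehhadh, both peroxisomal. Of 31 members tested in AT over BM, 9 were called lower and 0 higher at a q below 0.05 in the authors' deposited table, where 15.5% of all tested genes were called lower and 7.24% higher. At an unadjusted p below 0.05, 12 members were lower and 1 was higher. The members' median log2 fold was -0.65, against -0.48 for all tested genes. In AT over SPL, 9 of 31 were called lower and 0 higher in the authors' deposited table, against 17.9% and 7.2% of all genes, and 12 and 0 passed at an unadjusted p below 0.05. The median there was -0.83, against -0.52 for all genes. Centring on the median of all genes left 2 members called lower in AT over BM (Nudt7 and Crot) and 1 higher (Acaa1a), against 5.11% and 11.8% of all genes. It left 3 called lower in AT over SPL (Acsl5, Ehhadh and Nudt7) and 0 higher, against 6.95% and 11.5% of all genes. Scaled to equal total counts, 3 members were lower in AT over BM (Ehhadh, Nudt7 and Crot) and 1 higher (Acaa1a), against 7.53% and 9.93% of all genes, and the same 3 as on centring were lower in AT over SPL with 0 higher, against 6.89% and 11.8%. Most of the lower calls in AT therefore hold only on the deposited scale.

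**Figure D1:**
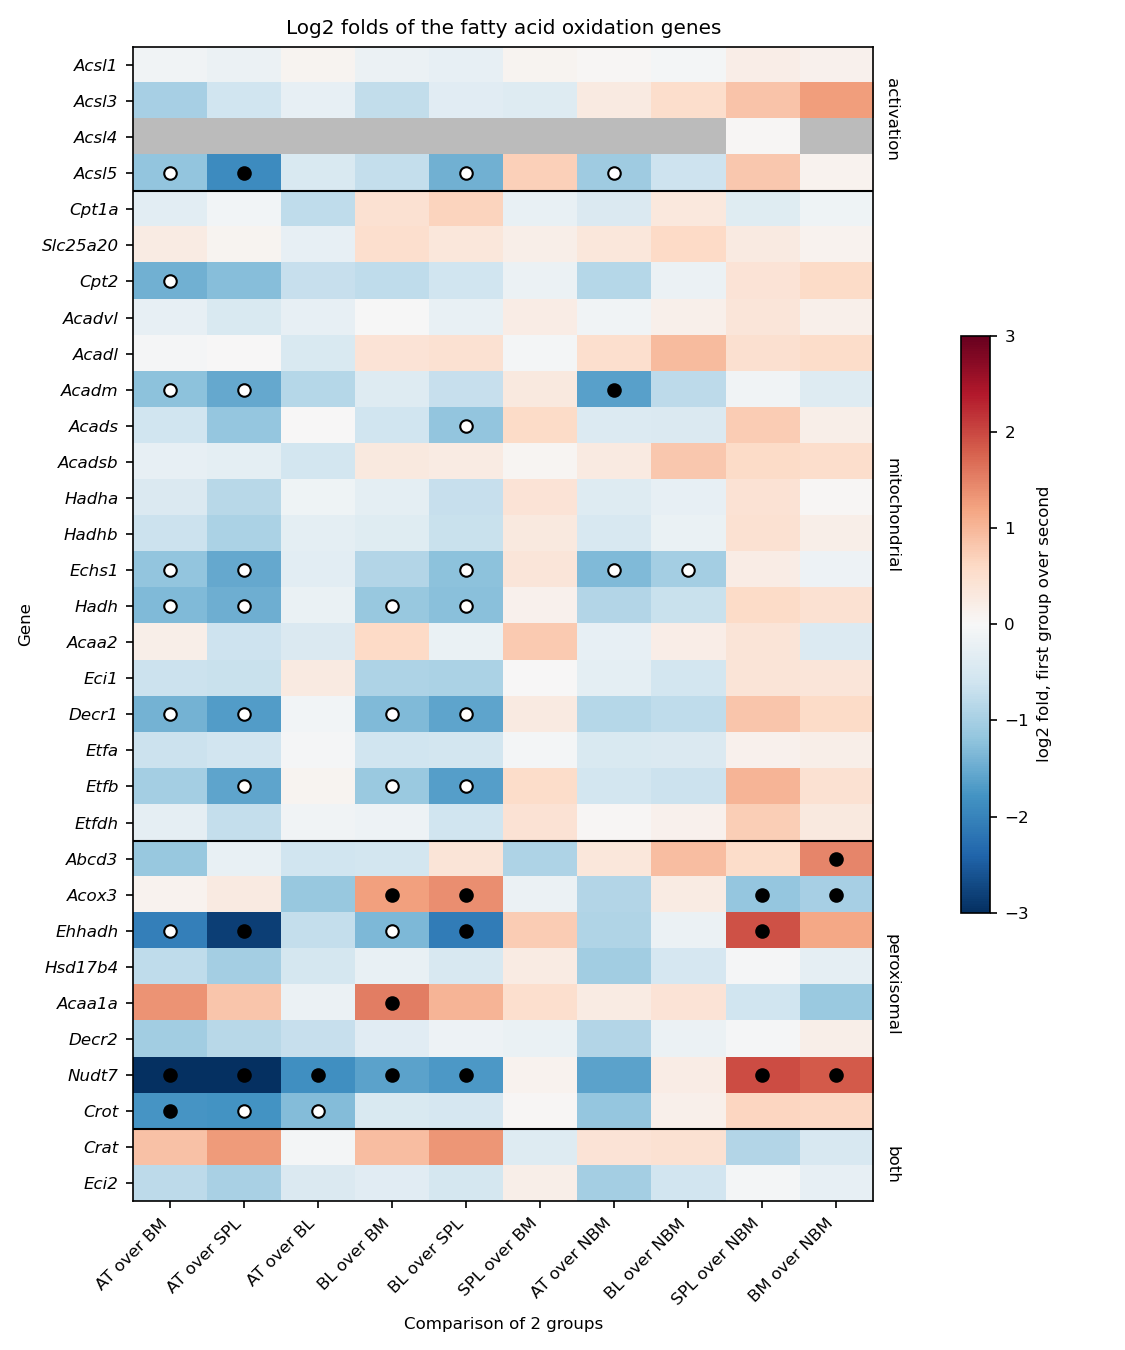
Log2 folds of the 32 genes (rows, by compartment) in 10 comparisons (columns), the first group over the second, with blue lower and red higher. Circles mark genes called at a q below 0.05, filled where the call in that direction was kept after centring on the median of all tested genes (19 of 46), and grey cells were not tested. The colour scale ends at 3 log2 units, which Nudt7 passes in AT over BM (-3.45) and AT over SPL (-3.56).

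Among the activating enzymes, Acsl5, a long-chain acyl-CoA synthetase, was the one with calls. Its pooled FPKM was 8.32 in AT, 11.4 in BL, 30.8 in SPL, 18.8 in BM and 17.4 in NBM. Acsl5 was thus lowest in AT and highest in SPL. In the authors' deposited table its log2 fold was -1.89 ± 0.50 (SE implied by the fold and its statistic) in AT over SPL (q = 0.00199) and -1.18 ± 0.42 in AT over BM (q = 0.0290). The call in AT over SPL was kept after centring (q = 0.0393) and that in AT over BM was not (q = 0.285). The authors' deposited table also called Acsl5 lower in BL over SPL (q = 0.0113) and AT over NBM (q = 0.0459), and both calls were lost on centring. Acsl1, the main synthetase of adipose and muscle, was nearly level, at 3.48 FPKM in AT, 3.28 in BL, 3.91 in SPL, 3.72 in BM and 3.40 in NBM. Acsl3, which works at lipid droplets and the endoplasmic reticulum, was highest at 0.565 FPKM in BM and lowest at 0.236 in NBM, and was called nowhere. Acsl4, which prefers arachidonic acid, was highest at 4.58 FPKM in BL and lowest at 2.96 in NBM, and the authors' table gave it a test in 1 of 10 comparisons.

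Entry into mitochondria did not follow a single order of sites. Cpt1a, the malonyl-CoA-inhibited enzyme that makes acylcarnitine and limits the rate of entry, had 8.56 FPKM in AT, 14.5 in BL, 9.10 in SPL, 10.6 in BM and 11.6 in NBM. It was highest in BL and lowest in AT, and 0 of its 10 comparisons were called. The carrier gene Slc25a20, which exchanges acylcarnitine for carnitine across the inner membrane, had 11.8 FPKM in AT, 14.1 in BL, 11.2 in SPL, 9.97 in BM and 9.30 in NBM, again with no call. Cpt2, which regenerates acyl-CoA inside, had another order, with 2.95 FPKM in AT, 4.72 in BL, 7.12 in SPL, 8.02 in BM and 5.35 in NBM. In the authors' deposited table Cpt2 fell by 1.44 on the log2 scale in AT over BM (SE 0.45, q = 0.00916), and after centring its q was 0.124.

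The 5 acyl-CoA dehydrogenases carry out the first step of each round for different chain lengths. Acadm, the medium-chain enzyme, and Acadvl were lowest in AT, and of this pair Acadm alone had calls. Acadm had 3.07 FPKM in AT, 5.55 in BL, 8.92 in SPL, 7.25 in BM and 9.53 in NBM. It was called lower in AT than in NBM, with a log2 fold of -1.64 ± 0.44 in the authors' deposited table (q = 0.00219, and 0.0434 after centring). Its calls in AT over BM (q = 0.0264) and AT over SPL (q = 0.0167) in the authors' deposited table were lost on centring. Acads, for short chains, had 3.45 FPKM in AT, 3.43 in BL, 7.77 in SPL, 5.22 in BM and 4.59 in NBM, and was called in BL over SPL alone (-1.18 ± 0.45, q = 0.0450 in the authors' deposited table), a call lost on centring (q = 0.260) and with equal total counts (q = 0.170). The very-long-chain enzyme Acadvl ranged from 15.8 FPKM in AT to 21.8 in SPL. Of its exon bases 42.9% overlap Dvl2 on the opposite strand, and without strand in the kit those reads cannot be told apart. Acadl, for long chains, was highest at 4.41 FPKM in BL and lowest at 2.27 in NBM, and Acadsb, for short branched chains, was highest at 4.90 in BL and lowest at 2.78 in NBM, with no call for either in the authors' table.

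The next steps held the most repeated mitochondrial calls. Echs1, the short-chain enoyl-CoA hydratase, had 10.6 FPKM in AT, 13.1 in BL, 30.7 in SPL, 24.0 in BM and 26.5 in NBM. AT and BL were the low groups. It was called lower in 5 comparisons of the authors' deposited table, with log2 folds of -1.18 ± 0.44 in AT over BM (q = 0.0353), -1.54 ± 0.52 in AT over SPL (q = 0.0198) and -1.23 ± 0.46 in BL over SPL (q = 0.0365). Against NBM the authors' deposited table gave -1.32 ± 0.43 for AT (q = 0.0147) and -1.01 ± 0.35 for BL (q = 0.0223). Hadh, the 3-hydroxyacyl-CoA dehydrogenase, had 9.44 FPKM in AT, 10.9 in BL, 26.1 in SPL, 23.8 in BM and 17.4 in NBM, and was called lower in AT and in BL against both BM and SPL. Its log2 fold was -1.33 ± 0.45 in AT over BM (q = 0.0176) and -1.13 ± 0.35 in BL over BM (q = 0.0102) in the authors' deposited table. None of these Echs1 and Hadh calls was kept after centring. The trifunctional protein genes Hadha, at 6.06 FPKM in AT and 10.8 in SPL, and Hadhb, at 16.5 in AT and 31.8 in SPL, were lowest in AT and highest in SPL without a call. The thiolase gene Acaa2 was highest at 36.4 FPKM in SPL and lowest at 21.0 in BM, also without a call on the deposited scale. After centring it was called higher in BL over BM (q = 0.0349).

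Auxiliary enzymes and electron transfer followed the same order in part. Decr1, the dienoyl-CoA reductase needed for unsaturated chains, had 1.45 FPKM in AT, 1.53 in BL, 4.63 in SPL, 3.85 in BM and 2.61 in NBM. The authors' deposited table called Decr1 lower in AT than in BM (-1.41 ± 0.46, q = 0.0150) and SPL (-1.67 ± 0.54, q = 0.0126). It also called Decr1 lower in BL than in BM (-1.33 ± 0.37, q = 0.00366) and SPL (-1.59 ± 0.46, q = 0.00515). All 4 calls were lost on centring, with q = 0.162 in AT over BM, 0.127 in AT over SPL, 0.0547 in BL over BM and 0.0542 in BL over SPL. Eci1, the mitochondrial enoyl-CoA isomerase, ranged from 2.91 FPKM in BL to 5.60 in SPL with no call. Etfb, the beta subunit of electron transfer flavoprotein and the most abundant member, had 61.1 FPKM in AT, 57.9 in BL, 183 in SPL, 125 in BM and 90.0 in NBM, and SPL and BM were its high groups. The authors' deposited table called it lower in AT over SPL (-1.58 ± 0.60, q = 0.0436), BL over BM (-1.10 ± 0.39, q = 0.0246) and BL over SPL (-1.66 ± 0.52, q = 0.0101), and centring removed all 3 calls (q = 0.246, 0.194 and 0.0738). A predicted gene shares 53.0% of its exon bases on the same strand, so reads cannot be split with certainty. The partner subunit Etfa, from 10.7 FPKM in AT to 16.7 in BM, and the dehydrogenase Etfdh, from 14.9 in SPL down to 8.96 in NBM, were not called.

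**Figure D2:**
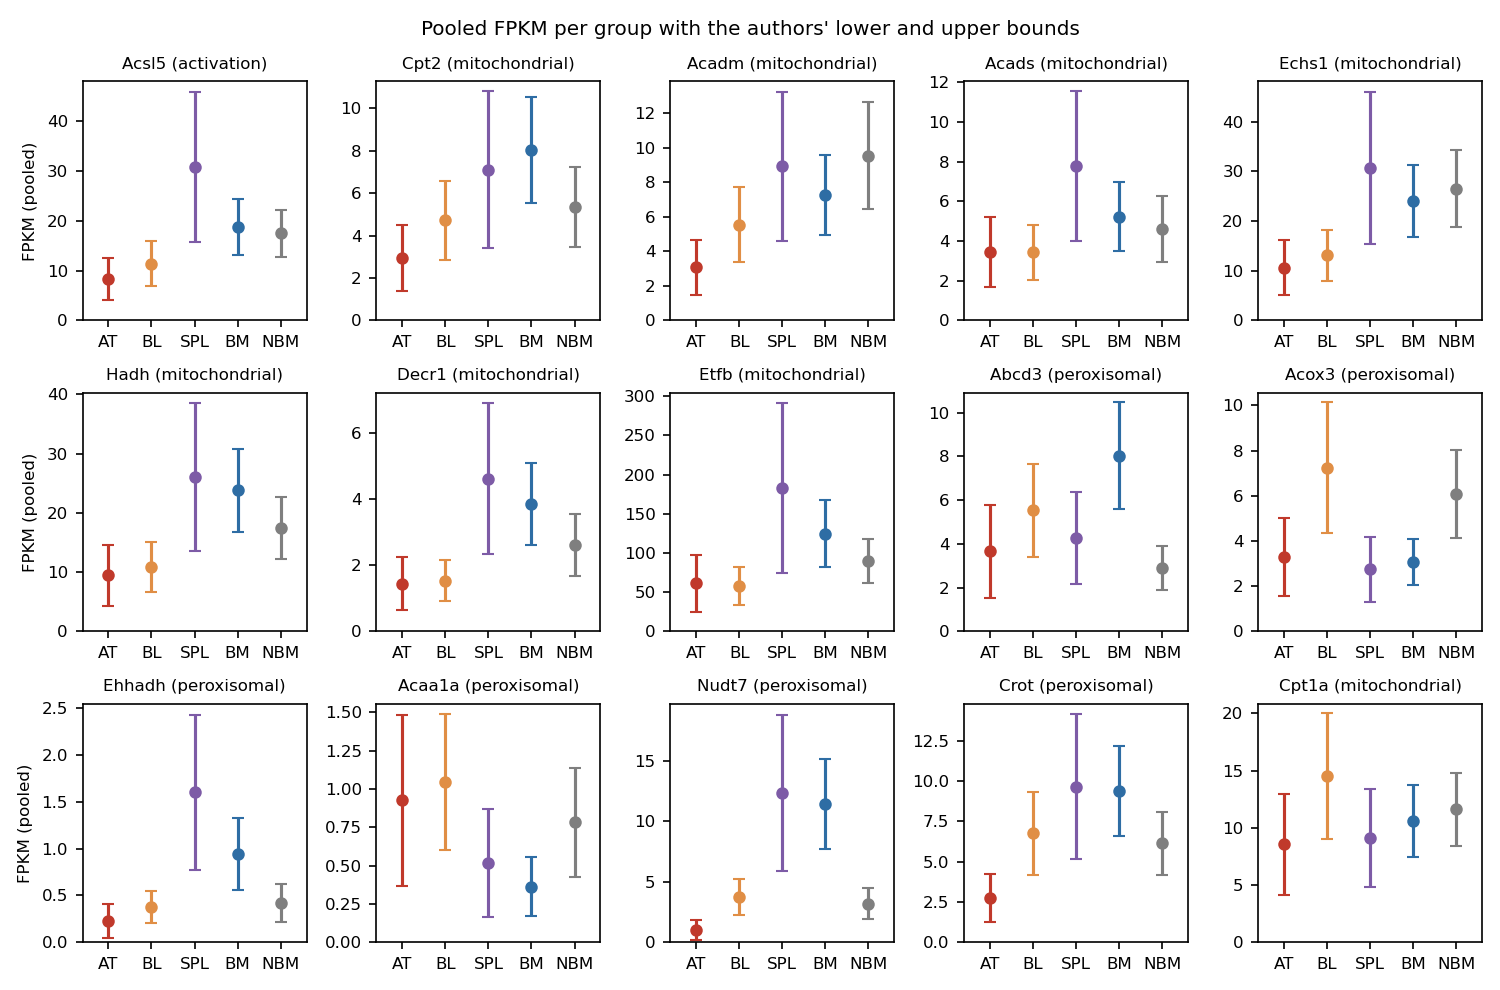
Pooled FPKM (y axis, linear from 0) in AT, BL, SPL, BM and NBM (x axis) for the 14 members called in at least 1 comparison and for Cpt1a, which was called in 0. Points are the authors' pooled values and bars run between the authors' lower and upper bounds, 2 standard deviations on either side. Nudt7 lies at 1.04 in AT, against 12.3 in SPL and 11.4 in BM.

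Of the 8 peroxisomal genes, 6 were called in at least 1 of the 10 comparisons, and of the 18 mitochondrial genes 7 were, where 54.4% of all tested genes were. After centring the numbers were 6 of 8 and 5 of 18, against 48.8% of all tested genes, and the difference between compartments was not tested. Nudt7, a peroxisomal hydrolase that breaks down coenzyme A and its esters, had 1.04 FPKM in AT, 3.75 in BL, 12.3 in SPL, 11.4 in BM and 3.20 in NBM. SPL and BM were highest and AT lowest, and of neighbours in that order BM and BL were the pair with a called difference. In the authors' deposited table its log2 fold was -3.45 ± 0.61 in AT over BM (q = 6.69e-07), -3.56 ± 0.68 in AT over SPL (q = 4.89e-06) and -1.85 ± 0.63 in AT over BL (q = 0.0217). It was also lower in BL than in BM (-1.60 ± 0.37, q = 0.000265) and SPL (-1.72 ± 0.48, q = 0.00308) in the authors' deposited table. All 5 of these calls were kept after centring, while that in AT over BL was lost with equal total counts (q = 0.0570). Against NBM, the authors' deposited table gave 1.84 ± 0.37 for BM (q = 2.15e-05) and 1.95 ± 0.48 for SPL (q = 0.000605).

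Ehhadh, the peroxisomal bifunctional enzyme and a classical PPAR alpha target in liver, followed a like order at low level, with 0.227 FPKM in AT, 0.374 in BL, 1.60 in SPL, 0.945 in BM and 0.422 in NBM. Only SPL reached an FPKM of 1. The authors' deposited table gave log2 folds of -2.82 ± 0.69 in AT over SPL (q = 0.000576), -2.10 ± 0.50 in BL over SPL (q = 0.000381) and 1.92 ± 0.51 in SPL over NBM (q = 0.00184), each kept after centring. The calls in AT over BM (q = 0.0107) and BL over BM (q = 0.0158) in the authors' deposited table were not kept. Crot, which makes carnitine esters of shortened chains for export to mitochondria, had 2.77 FPKM in AT, 6.77 in BL, 9.66 in SPL, 9.37 in BM and 6.14 in NBM. Crot was lowest in AT, and AT over NBM was not called (q = 0.0513 in the authors' deposited table). Its log2 fold was -1.76 ± 0.44 in AT over BM (q = 0.000931), -1.80 ± 0.51 in AT over SPL (q = 0.00405) and -1.29 ± 0.47 in AT over BL (q = 0.0345) in the authors' deposited table, of which the first was kept after centring.

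Acox3, an oxidase for branched chains, and the transporter Abcd3 departed from that order. Acox3 had 3.29 FPKM in AT, 7.24 in BL, 2.74 in SPL, 3.07 in BM and 6.10 in NBM, so BL and NBM had the highest values. Acox3 was called neither in AT over BL (q = 0.0730) nor in AT over NBM (q = 0.151) in the authors' deposited table. The authors' deposited table called it higher in BL than in BM (1.24 ± 0.37, q = 0.00750) and SPL (1.40 ± 0.48, q = 0.0201). It was called lower in BM (-0.99 ± 0.33, q = 0.0183) and in SPL (-1.15 ± 0.44, q = 0.0457) than in NBM in the authors' deposited table, and all 4 calls were kept under both scalings. Abcd3, which carries branched and dicarboxylic acyl-CoA into peroxisomes, had 3.65 FPKM in AT, 5.52 in BL, 4.25 in SPL, 8.03 in BM and 2.89 in NBM. BM was the highest group, and its log2 fold over NBM was 1.47 ± 0.34 (q = 0.000199) in the authors' deposited table.

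Acaa1a, a peroxisomal thiolase, had 0.927 FPKM in AT, 1.05 in BL, 0.516 in SPL, 0.364 in BM and 0.783 in NBM. It was called higher in BL than in BM (1.53 ± 0.49, q = 0.0125) in the authors' deposited table. Its paralog Acaa1b is nearly identical, so reads may be shared between them. Hsd17b4, the second bifunctional enzyme, ranged from 4.07 FPKM in AT to 8.34 in NBM, and Decr2, the peroxisomal dienoyl-CoA reductase, from 1.54 in AT to 3.16 in BM, with no call for either. Of the genes whose products lie in both compartments, Crat, carnitine acetyltransferase, had 1.35 FPKM in AT, 1.39 in BL, 0.555 in SPL, 0.731 in BM and 1.02 in NBM. Eci2, an enoyl-CoA isomerase, ranged from 7.52 FPKM in AT to 15.3 in NBM, and neither was called.

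**Figure D3:**
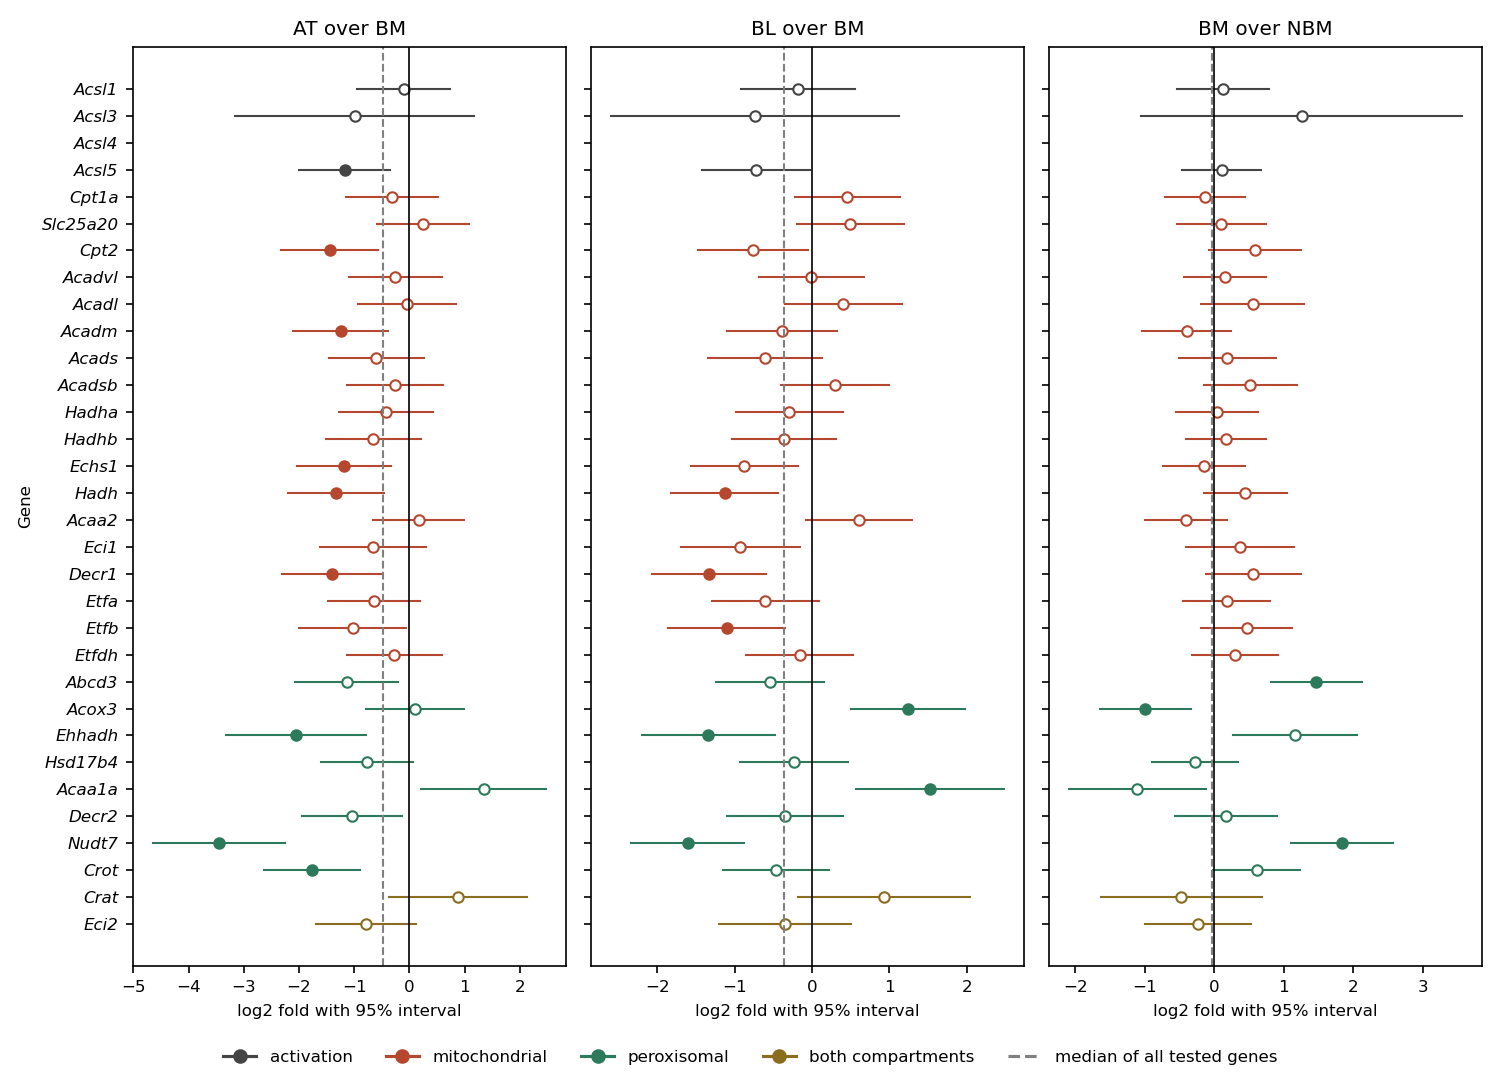
Log2 folds (x axis) with 95% intervals of the tested members (y axis) in AT over BM, BL over BM and BM over NBM, coloured by compartment and filled where called at a q below 0.05. Dashed lines mark the median of all tested genes (-0.48, -0.37 and -0.03). In AT over BM, 26 of 31 points lie left of 0, with Nudt7 at -3.45.

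Members called lower in BL against BM and SPL were about as frequent as among all genes. Of 31 members tested in BL over BM, 2 were called higher (Acox3 and Acaa1a) and 5 lower (Hadh, Decr1, Etfb, Ehhadh and Nudt7) in the authors' deposited table, where 10.5% of all genes were higher and 22.8% lower. The median was -0.36, against -0.37 for all genes. In BL over SPL, 1 was called higher and 8 lower in the authors' deposited table, against 10.2% and 23.1% of all genes. Among the 18 mitochondrial members, 3 were lower in BL over BM and 5 in BL over SPL, and after centring 0 and 0 were lower, with Acaa2 higher in BL over BM. On centring, 3 members were higher (Acaa2, Acox3 and Acaa1a) and 1 lower (Nudt7) in BL over BM, against 15.6% and 13.5% of all genes, and 1 was higher (Acox3) and 2 lower (Ehhadh and Nudt7) in BL over SPL, against 14.9% and 14.5%. With equal total counts, the numbers were 2 higher and 5 lower in BL over BM, against 11.3% and 20.6% of all genes, and 1 higher and 4 lower in BL over SPL, against 13.3% and 16.6%. Between AT and BL, 2 of 31 members were called lower (Nudt7 and Crot) and 0 higher in the authors' deposited table, against 2.51% and 4.01% of all genes. At an unadjusted p below 0.05 they numbered 3 and 0. Centring left Nudt7 alone lower and 0 higher in AT over BL, against 1.65% and 4.39% of all genes, and equal total counts left 0 and 0, against 1.14% and 5.53%. SPL and BM were the pair without a call, with 0 of 31 members higher and 0 lower in the authors' deposited table, against 1.19% and 1.5% of all genes. At an unadjusted p below 0.05, Abcd3 alone was lower in SPL than in BM (-0.92 ± 0.42, q = 0.105 in the authors' deposited table), and it was called with equal total counts (q = 0.0373), where 2.56% of all genes were lower and 0.756% higher. On centring, 0 members were called in SPL over BM, against 0.905% of all genes higher and 1.89% lower. A pair without a call is not shown to be alike, since SPL was the shallowest group.

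Set against normal marrow cells, mitochondrial oxidation genes gave no call in BM or SPL. In BM over NBM, 2 of 31 members were called higher (Abcd3 and Nudt7) and 1 lower (Acox3) in the authors' deposited table, against 8.17% and 7.85% of all genes, and all 3 are peroxisomal. In SPL over NBM, 2 of 32 were called higher (Ehhadh and Nudt7) and 1 lower (Acox3) in the authors' deposited table, against 6.37% and 6.19% of all genes. The 18 mitochondrial members had a median log2 fold of 0.18 in BM over NBM and 0.43 in SPL over NBM, where the medians of all genes were -0.03 and 0.11. In AT over NBM, 3 of 31 members were called lower (Acsl5, Acadm and Echs1) and 0 higher in the authors' deposited table, against 15.5% and 7.94% of all genes, with 9 and 0 at an unadjusted p below 0.05. In BL over NBM, 1 was called lower (Echs1) and 0 higher in the authors' deposited table, against 22.9% and 11.5% of all genes, with 2 and 3 at an unadjusted p below 0.05. After centring, Slc25a20, Acadl, Acadsb and Abcd3 were called higher in BL over NBM and 0 lower, against 16.6% and 14.0% of all genes, while equal total counts kept Echs1 as the lower call with 0 higher, against 22.1% and 11.5%. Acadm alone was lower in AT over NBM under either scaling, against 6.56% of all genes lower and 12.4% higher on centring and 9.63% and 10.2% with equal total counts. In BM over NBM, centring added Ehhadh to the higher calls (q = 0.0494), for 3 higher and 1 lower, against 8.2% and 7.35% of all genes, and equal total counts gave 2 and 1, against 7.6% and 8.21%. In SPL over NBM the calls were the same genes under both scalings, against 5.54% of all genes higher and 6.75% lower on centring and 4.69% and 8.29% with equal total counts.

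Other genes of the pathway were read from lists of the same kind. Of 15 tested further peroxisomal enzymes, 5 were called lower and 1 higher in AT over BM in the authors' deposited table. Among all genes 15.5% were lower and 7.24% higher. On centring they numbered 3 lower and 2 higher, against 5.11% and 11.8% of all genes. Hacl1, which cleaves a carbon from branched chains in alpha-oxidation, had 1.11 FPKM in AT, against 6.14 in BM and 1.57 in NBM, with log2 folds of -2.47 ± 0.49 in AT over BM (q = 1.51e-05) and 1.97 ± 0.36 in BM over NBM (q = 2.26e-06) in the authors' deposited table. Amacr, the racemase for branched acyl-CoA, and Pecr, a trans-enoyl-CoA reductase, fell by 2.95 and 2.30 on the log2 scale in AT over BM in the authors' deposited table. Amacr was below 1 FPKM in both groups, at 0.0681 in AT and 0.527 in BM, and Pecr had 0.498 in AT, against 2.46 in BM. Abcd2, a transporter of very-long-chain acyl-CoA, was higher in AT than in BM (1.24 ± 0.47, q = 0.0449) in the authors' deposited table. A list of further genes kept with mitochondrial oxidation, whose place in the cell was not checked, had 21 tested. Of these, 7 were called lower and 0 higher in AT over BM in the authors' deposited table, against the same 15.5% and 7.24%. Among them in the authors' deposited table were the brain-type Cpt1c (-2.80 ± 0.71, q = 0.00111) and the propionyl-CoA pathway genes Pcca (q = 0.00497) and Mut (q = 0.00501). After centring, Cpt1c was the 1 gene of that list still called, where 5.11% of all genes were lower. Cpt1c was below 1 FPKM in both groups, at 0.0965 in AT and 0.670 in BM. Acad10 had 1.41 FPKM in BM, against 0.668 in NBM (q = 0.0368 in the authors' deposited table).

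Of 15 peroxisome assembly genes tested, 4 were called lower in AT than in BM in the authors' deposited table, among them Pex10 and Pex11a, where 15.5% of all genes were lower. On centring 0 of the 15 were called. Pex11a, which acts in peroxisome division, was higher in BM than in NBM (1.33 ± 0.46, q = 0.0227 in the authors' deposited table). Ketone body enzymes Acat1 (-1.35 ± 0.43, q = 0.0118) and Oxct1 (-1.18 ± 0.43, q = 0.0354) were lower in AT than in BM in the authors' deposited table, and neither was kept on centring. Among 13 tested regulators, 2 were called higher and 1 lower in AT over BM in the authors' deposited table. Among all genes 7.24% were higher and 15.5% lower. On centring they numbered 3 higher and 1 lower, against 11.8% and 5.11% of all genes. Higher in the authors' deposited table were Pparg (2.83 ± 0.56, q = 1.01e-05) and Tfeb, a regulator of lysosome and lipid genes (3.33 ± 0.67, q = 2.03e-05). Sirt5, a mitochondrial deacylase, was the lower one (-2.40 ± 0.62, q = 0.00121 in the authors' deposited table). Pparg and Tfeb were also called higher in BL than in BM and SPL, and neither was called between AT and BL. They had 4.72 and 1.29 FPKM in BL, against 5.84 and 1.10 in AT. In BM over NBM, Tfeb (-2.20 ± 0.62, q = 0.00344) and Ppargc1b, a coactivator of oxidative genes (-1.47 ± 0.47, q = 0.0117), were lower in the authors' deposited table. Of 10 macrophage markers, 5 were called higher and 0 lower in AT over BM, against 7.24% and 15.5% of all genes. Lyz2 and Csf1r, both called, had 852 and 22.9 FPKM in AT, 1105 and 54.2 in BL, and 121 and 3.38 in BM. Mrc1 and Fcgr1 went the other way without a call, at 0.321 and 0.185 FPKM in AT, against 0.760 and 0.387 in BM. The part of macrophages in the Pparg and Tfeb values was not tested.

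**Figure D4:**
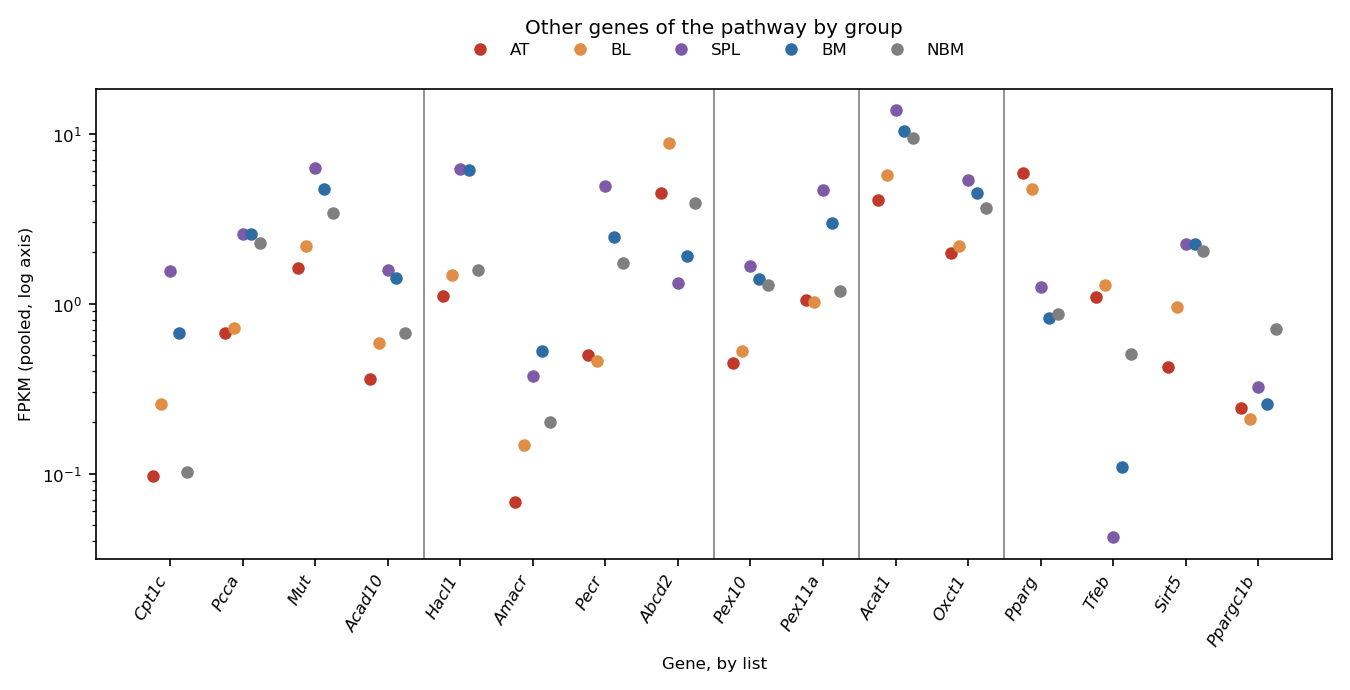
Pooled FPKM (y axis, log scale) of further genes of the pathway (x axis) in AT, BL, SPL, BM and NBM, with lines between lists. The lists are genes kept with mitochondrial oxidation, peroxisomal enzymes, assembly genes, ketone body enzymes and regulators. Hacl1 lies at 1.11 in AT, against 6.14 in BM, and Pparg at 5.84 in AT and 4.72 in BL, against 0.822 in BM.

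Over all groups, AT was the lowest for 17 of the 31 members that reached an FPKM of 1 somewhere, and the same was true of 35.4% of all 9630 such genes. SPL was the highest for 16 of the 31, and for 42.9% of all such genes. With levels centred on the median ratio to BM, a reading added after the design, AT was the lowest for 11 of the 31 and for 16.9% of all genes. In that reading 4 of 18 mitochondrial members were lowest in AT and 8 of 18 in NBM, against 16.9% and 18.8% of all genes. Of the 8 peroxisomal members, 5 were lowest in AT on both scales (Ehhadh, Hsd17b4, Decr2, Nudt7 and Crot). Hsd17b4 and Decr2 were called in no comparison, and the difference between compartments was not tested. The summed FPKM of the 18 mitochondrial members was 204 in AT, 236 in BL, 433 in SPL, 332 in BM and 286 in NBM. Etfb alone gave 61.1 of it in AT, 57.9 in BL, 183 in SPL, 125 in BM and 90.0 in NBM. The median FPKM of the 18 ranged less, at 8.84 in AT, 10.4 in BL, 11.0 in SPL, 10.3 in BM and 9.42 in NBM. The summed FPKM of the 8 peroxisomal members was 17.5 in AT, 33.1 in BL, 42.0 in SPL, 43.3 in BM and 30.7 in NBM. Their medians were 2.15, 4.64, 3.50, 5.02 and 3.05 in the same order.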

How the data were processed

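RNA from 15 libraries was made with RNeasy Plus, SMARTer low-input and Nextera XT chemistry, per the labels' protocols, and this chemistry does not mark strand. Per the submitters' processing notes, Trimmomatic 0.32, Cufflinks 2.0.2 and Cuffdiff were used on mm10. Not given in the sources used here are the aligner, the annotation and Cuffdiff's version. Per the file headers, the authors deposited 1 FPKM per gene and group with lower and upper bounds, and an estimated count per gene and group. For each of 10 pairs the deposited table holds a log2 fold and a test statistic, both read here as a score because infinite values occur, and a p-value and a q-value.

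Genes marked as tested by the authors with a q-value below 0.05 count as called. A Benjamini-Hochberg adjustment over all 10 comparisons gave the deposited q-value within 1.70e-06. Folds were turned so that the first named group is the numerator. The standard error is the fold divided by its statistic. Scaling alternatives shifted each fold by the median of all tested genes, or by the shift that gives equal total estimated counts, the latter from genes with over 30 counts in both groups, and recomputed p from the kept standard error. The recalculation was tested on simulated data. All members are named, with up to 3 genes of each other list by smallest q in AT over BM and in BM over NBM, apart from a few that are not reported here. Members, lists and tests were chosen with earlier results of these data known. Of the 4 motifs searched, 2 were in the design and 2 were added later. The planned look at protein ends was not done, since proteins were not used here. Python 3.11.15 with pandas 2.3.3, numpy 2.4.6, scipy 1.17.1 and matplotlib 3.10.9 was used.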

Additional observations from a re-analysis of the deposited data

How the results depend on the processing

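No paired analysis was possible because the deposited columns are pooled per group, and for the same reason leaving out a replicate was not run. The calls of single genes kept their direction under every alternative. Of 46 calls, 19 were kept after centring on the median of all tested genes and 26 with equal total counts, 43 with q adjusted within the comparison, 18 at a q below 0.01, 44 among genes with an FPKM of 1 or more in at least 1 of the 2 groups (the filter removed the others), and 46 with merged or discordant entries left out. With centring, members called higher became 1 in AT over BM and 4 in BL over NBM, and members called lower became 2 in AT over BM, 3 in AT over SPL, 1 in AT over BL, 1 in BL over BM, 2 in BL over SPL, 1 in AT over NBM and 0 in BL over NBM. With equal total counts, 1 was called higher in AT over BM, and those called lower were 3 in AT over BM, 3 in AT over SPL, 0 in AT over BL, 4 in BL over SPL, 1 in SPL over BM and 1 in AT over NBM. Adjusted within the comparison, lower calls were 0 in AT over BL, 5 in AT over NBM and 0 in SPL over NBM, and higher calls 2 in BL over NBM. At a q below 0.01, higher calls were 1 in BL over BM and 0 in BL over SPL. Lower calls were then 3 in AT over BM, 4 in AT over SPL, 0 in AT over BL, 2 in BL over BM, 3 in BL over SPL, 1 in AT over NBM, 0 in BL over NBM, 0 in SPL over NBM and 0 in BM over NBM. The members' median log2 fold became -0.18 in AT over BM, -0.31 in AT over SPL, 0.00464 in BL over BM and -0.00143 in AT over NBM on centring, and -0.30 in AT over SPL with equal total counts. SPL had the fewest counts, which limits what its comparisons can call.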
